A study of Mus musculus with 24 samples.

Results

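Heat shock proteins of the cytosol and mitochondria were followed in mouse embryos given an activated cyclophosphamide, through 29 probes of 8 genes: Hsp90aa1, Hspa8, Dnajb1, Dnaja1, Dnaja2, Fkbp4, Chordc1 and Hspd1. A probe was taken if the platform annotation gave it exactly 1 gene symbol and that symbol was one of these 8, which left 29 of 15360 probes. The 8 genes were chosen on measured values, namely the treatment effects of these arrays, so their direction and size are given as a description and were not tested. Embryos were cultured at 37 °C and either left untreated or kept for 1 h in 40 µM 4-hydroperoxycyclophosphamide, an analogue of the drug that needs no metabolic activation. Total RNA of the treated and of the control embryos was hybridised together on two-channel arrays, 1 in each channel, so each value is itself a ratio of the 2 groups. The 24 records formed, by their titles, 12 slides of 2 records and 6 slide pairs with the channels swapped within a pair, 3 pairs on each of 2 platforms of 7680 probes, here called the first and second table. The labels used here name no strain, embryo stage, pool size or dyes. They do not say either whether a pair number marks a separate culture.

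Heat shock proteins are molecular chaperones, which bind unfolded or partly folded proteins. HSP70 proteins take up client proteins delivered by J-domain proteins, which stimulate the HSP70 ATPase, and pass some of them to HSP90, whose clients include steroid receptors and kinases. HSP60 forms a folding chamber in the mitochondrial matrix. Many of these genes are transcribed at a basal level in every cell and are raised by heat shock factor 1 when misfolded protein accumulates. This factor binds heat shock elements, runs of the unit nGAAn in alternating orientation, in the promoters of its targets.

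The promoter entries of the members were searched for the element through which this gene family is classically controlled. RefSeq promoter entries (GRCm38.p6) were found for 6 of the 8 genes, 10 entries in all: Dnajb1, Dnaja1, Dnaja2, Fkbp4, Chordc1 and Hspd1. Both strands were searched for the cores GAANNTTC and TTCNNGAA, in which 2 units meet head to head or tail to tail and which overlap where 3 or more units follow each other. Matches are in capitals, with up to 20 bases of flank in lower case, read 5′ to 3′ on the strand of the gene.

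Hspd1: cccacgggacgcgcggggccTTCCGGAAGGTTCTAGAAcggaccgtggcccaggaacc
Chordc1: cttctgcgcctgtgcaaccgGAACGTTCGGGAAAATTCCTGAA
Dnaja1: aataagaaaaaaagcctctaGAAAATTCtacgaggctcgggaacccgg
Fkbp4: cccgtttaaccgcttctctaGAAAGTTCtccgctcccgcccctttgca

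The Hspd1 window (chr1:55088039-55088096, minus strand) held 4 alternating units from position -144 to -127 relative to the start. The Chordc1 window (chr9:18292243-18292285, plus strand) held 5 units in a run that crosses the start, from position -4 to 19, and its entry held a further 2-unit core at positions 34 to 41, not shown. The Dnaja1 window (chr4:40722324-40722371, plus strand) and the Fkbp4 window (chr6:128438780-128438827, minus strand) each held a single 2-unit core, ending at positions -117 and -144. No core was found in the entries of Dnajb1 and Dnaja2, nor in the other entries of Hspd1 and Dnaja1. Each entry covers only a short stretch around the start, and only exact matches were counted. An element further away or with a mismatch would be missed, so no gene can be said to lack one. One of the cores was thus present in 4 of 10 member entries, and in 15.1% of all 32851 promoters of the table. The 3-unit form, with a further unit after any 2 bases, was present in 2 of the 10 entries and in 0.603% of all promoters. These are letter matches only, and Dnajb1, without a match in its searched entries, had the highest mean effect of the 8 genes in the first table.

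Every array was centred on its median, the 2 records of a slide were averaged, and the treatment effect of a slide pair was the slide with treated RNA in channel 1 minus its swapped partner, divided by 2. A contribution of the dyes that is the same on both slides cancels in this difference. It is given as the dye component, which is the sum of the same slides divided by 2. With channel 1 as the numerator, a positive effect stands for a higher transcript level after treatment; the labels do not name the numerator, and with channel 2 every sign would be the opposite. If the submitters had already turned the swapped slides, the dye component would be the treatment effect. The log base is not stated either. The values exceed what base 10 allows for raw intensities of a 16-bit scanner, so folds are given for base 2 and e only. Background correction and normalization are not given, so this bound cannot exclude base 10. An effect of 0.3 is 1.23-fold in base 2 or 1.35-fold in base e. Ratios hold no level, so neither the abundance of a transcript nor the presence of a cell type could be read from them. In these whole embryos, fewer cells of a type and less RNA per cell cannot be told apart.

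The member probes had positive effects throughout pairs 1 and 2 of both tables, and in pair 3 they did not. In the first table, 22 of 22 probes were positive in pair 1, 22 of 22 in pair 2 and 11 of 22 in pair 3. The second-table counts were 7 of 7, 7 of 7 and 1 of 7. The median effect of the members was 0.31, 0.22 and -0.0001 in pairs 1, 2 and 3 of the first table; for second-table members it was 0.19, 0.20 and -0.11. In base 2 the first of these medians is 1.24-fold, and in base e 1.37-fold. Over all first-table probes, 58.6%, 51.2% and 40.6% were positive in the same pairs, and of the second-table probes 46.3%, 49.3% and 47.4%. Ranked from the most positive effect, the members' median rank among 7680 probes was 68 and 73.5 for first-table pairs 1 and 2, and 38 and 60 for second-table pairs 1 and 2. In pair 3 it was 3125.5 for the first-table members and 7138 for those of the second table, so that most second-table members lay toward the negative end. The exception was the second-table Chordc1 probe, at rank 318.

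**Figure D1:**
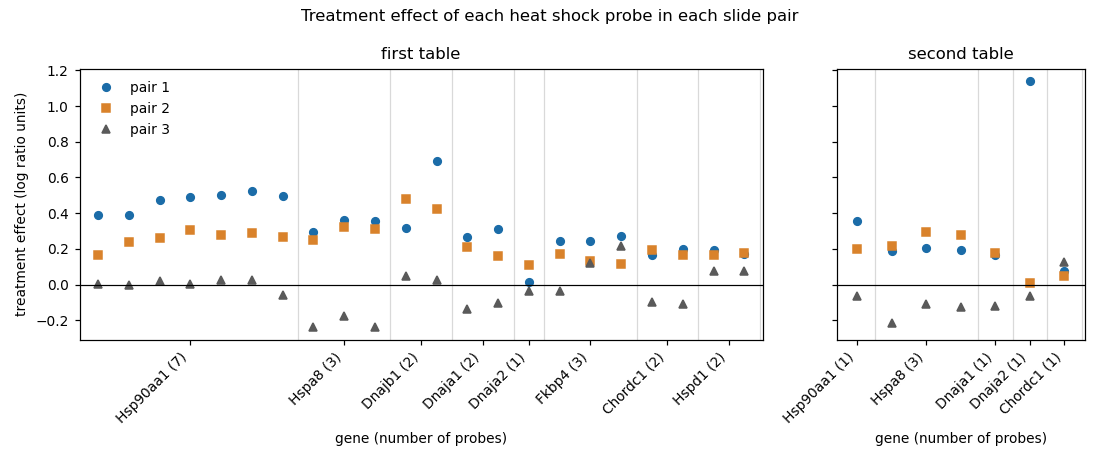
Treatment effect (log ratio units, vertical axis) of each of the 29 heat shock probes, grouped by gene (horizontal axis), for the first and second table; each point is 1 probe in 1 slide pair. All points of pairs 1 and 2 lie above 0, those of pair 3 lie on both sides of 0 in the first table, and 6 of 7 lie below 0 in the second.

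Hsp90aa1, the stress-inducible form of cytosolic HSP90, was measured by 7 probes in the first table. In pair 1, its 14 values with treated RNA in channel 1 had a lowest value of -0.23, a median of 0.046 and a highest of 0.29, and the 14 swapped values -1.38, -0.88 and -0.68. Those ranges did not overlap. In pair 2 the values were -0.21, 0.27 and 0.56 against -0.72, -0.24 and 0.13, where the ranges overlapped between probes and were apart within each of the 7. In pair 3 they were -1.91, -1.30 and -0.75 against -1.74, -1.37 and -0.76, so that both orientations covered nearly the same range. Of all first-table probes, 35.2%, 25.3% and 11.2% had both channel 1 records above both swapped records in pairs 1, 2 and 3. The reverse order in pair 3 was found for 21.6%. The effects of the 7 Hsp90aa1 probes ran from 0.39 to 0.52 in pair 1, from 0.17 to 0.31 in pair 2 and from -0.06 to 0.03 in pair 3. The gene's mean effect over the pairs was 0.24 ± 0.23 (SD, n = 3 pairs). The SD between its probes within a pair was 0.054, 0.046 and 0.029, far below the spread between pairs; the probes share the same RNA and are not replicates of the treatment. The single Hsp90aa1 probe of the second table gave 0.36, 0.20 and -0.07 in its 3 pairs.

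Actb, the cytoplasmic actin gene, was measured by 10 probes of the first table and served as a yardstick for agreement between spots of 1 gene. Its effects ran from 0.031 to 0.17 in pair 1, from -0.06 to 0.09 in pair 2 and from -0.20 to -0.01 in pair 3, with SDs of 0.036, 0.047 and 0.054 between probes. The Hsp90aa1 probes lay above all Actb probes in all 3 pairs except in pair 3, where the lowest Hsp90aa1 effect of -0.06 lay within the Actb range.

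Hspa8, the constitutive cytosolic HSP70, had 3 probes in each table. In pair 1 of the first table, its 6 values with treated RNA in channel 1 ran from -0.52 to -0.10 (median -0.21), and the 6 swapped values from -1.22 to -0.70 (median -1.01). In pair 2 they ran from -0.13 to 0.18 (median 0.11), against -0.63 to -0.42 (median -0.48). In pair 3 the order turned over, with -1.69 to -1.41 (median -1.57) against -1.26 to -0.97 (median -1.16). The groups of values did not overlap in any of the 3 pairs, and their order in pair 3 was the opposite of that in pairs 1 and 2. The effects per pair, averaged over the 3 probes, were 0.34, 0.30 and -0.22, with a mean of 0.14 ± 0.31 (SD, n = 3 pairs).

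The second table repeated this order for Hspa8 on other slides. The effects there were 0.20 and 0.26 in pairs 1 and 2 and -0.15 in pair 3, with a mean of 0.10 ± 0.22 (SD, n = 3 pairs). The 3 probes ranged only from 0.19 to 0.21 in pair 1 and from 0.22 to 0.29 in pair 2, and from -0.21 to -0.11 in pair 3. Whether same-numbered pairs of the 2 tables shared RNA is not given in the labels.

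**Figure D2:**
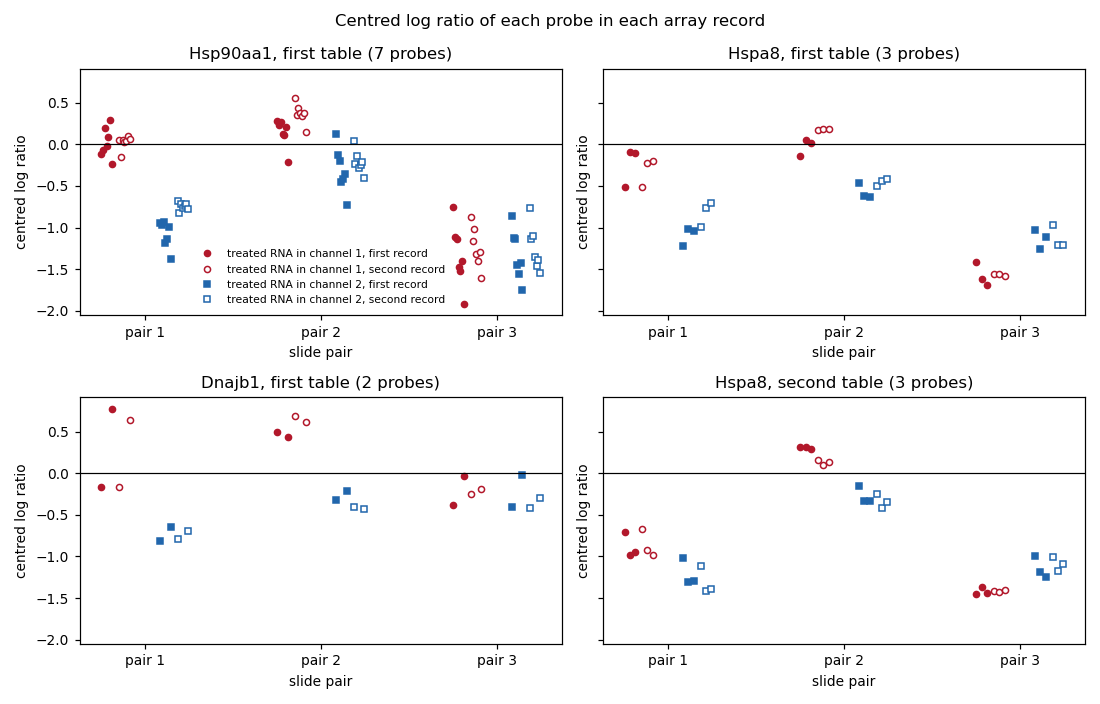
Median-centred log ratio (vertical axis, log ratio units) of the Hsp90aa1, Hspa8 and Dnajb1 probes of the first table and the Hspa8 probes of the second, in each record, by slide pair (horizontal axis) and by the channel that held the treated RNA (circles, channel 1; squares, channel 2; filled, first record; open, second record). In pairs 1 and 2 each probe lies higher with treated RNA in channel 1; in pair 3 the Hsp90aa1 values cover nearly the same range in both orientations and the Hspa8 values lie in the opposite order.

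Dnajb1, the major stress-induced J-domain partner of HSP70, was on the first table only, with 2 probes. Probe 2265 had values of 0.77 and 0.64 with treated RNA in channel 1 of pair 1, against -0.65 and -0.70 on the swapped slide. In pair 2 it had 0.44 and 0.62 against -0.22 and -0.43, and in pair 3 -0.03 and -0.19 against -0.02 and -0.30. The records of the 2 orientations were apart in pairs 1 and 2 and overlapped in pair 3. Its effects were 0.69, 0.43 and 0.02, and that of pair 1 was the most positive of all 7680 probes. Probe 2167 had values of -0.17 and -0.17 against -0.82 and -0.78 in pair 1, 0.50 and 0.69 against -0.33 and -0.40 in pair 2, and -0.38 and -0.25 against -0.40 and -0.41 in pair 3. Its effects were 0.32, 0.48 and 0.05, so the 2 probes differed by a larger amount in pair 1 than in the other pairs. The gene's mean over probes was 0.33 ± 0.26 (SD, n = 3 pairs).

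Dnaja1, a type I J-domain protein that works with cytosolic HSP70, had smaller effects in the same order. Its 2 first-table probes averaged 0.29, 0.18 and -0.12, with a mean of 0.12 ± 0.21 (SD, n = 3 pairs). In pair 1 its 4 values with treated RNA in channel 1 ran from -0.18 to 0.01 and the 4 swapped ones from -0.77 to -0.52. In pair 3 they ran from -1.34 to -1.03 against -1.06 to -0.84. Within each probe, both values with treated RNA in channel 1 lay below both swapped ones, the reverse of pair 1. The second-table probe gave 0.16, 0.17 and -0.12.

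Dnaja2, the closest relative of Dnaja1 among the members, stood apart from the rest. In the first table its probe had -0.35 and -0.35 against -0.39 and -0.38 in pair 1, and its effects were 0.016, 0.11 and -0.04. Its mean was 0.03 ± 0.07 (SD, n = 3 pairs), the lowest of the 8 genes. The second-table probe gave 1.14 in pair 1, then 0.01 and -0.07, and its mean of 0.36 ± 0.68 (SD, n = 3 pairs) was set by 1 record. That record, the first with treated RNA in channel 1 of pair 1, read 4.18, while the other record of the same slide read -0.34 and the swapped slide -0.33 and -0.40. With second records alone the pair 1 effect was 0.029. Without pair 1, this probe's 2 remaining effects lay on either side of 0.

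Fkbp4, an HSP90 co-chaperone with peptidyl-prolyl isomerase activity that takes part in steroid receptor complexes, had 3 probes in the first table and none in the second. In pair 1, its 6 values with treated RNA in channel 1 ran from -0.17 to 0.19 (median -0.083) and the swapped ones from -0.75 to -0.39 (median -0.53). In pair 2 they ran from 0.19 to 0.43 (median 0.26), against -0.17 to 0.11 (median 0.043). In pair 3 they ran from -1.01 to -0.01 (median -0.72), against -1.07 to -0.52 (median -0.86). The orientations were apart in pairs 1 and 2, and in pair 3 they overlapped across probes and were apart within 1 of 3, probe 5447. The gene's effects were 0.26, 0.14 and 0.10, with a mean of 0.17 ± 0.08 (SD, n = 3 pairs). Its probes disagreed in pair 3, with -0.04, 0.12 and 0.21.

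Chordc1, an HSP90-binding CHORD-domain protein, gave effects of 0.18, 0.18 and -0.10 over 2 first-table probes, with a mean of 0.09 ± 0.16 (SD, n = 3 pairs). Its second-table probe gave 0.08, 0.05 and 0.13, with a mean of 0.08 ± 0.04 (SD, n = 3 pairs). It was the only second-table member probe that was positive in pair 3, where its values were 0.09 and 0.10 against -0.33 and 0.01. The 2 tables therefore gave pair 3 effects of opposite sign for this gene.

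Hspd1, the mitochondrial HSP60, had 2 first-table probes with effects of 0.18, 0.17 and 0.08. Its mean of 0.14 ± 0.06 (SD, n = 3 pairs) had the smallest spread between pairs of the 8 genes in the first table. Probe 3797 gave 0.19, 0.17 and 0.08 and probe 4694 gave 0.17, 0.18 and 0.08. In pair 3 the 4 values with treated RNA in channel 1 ran from -0.97 to -0.77 and the swapped ones from -1.13 to -0.89. These ranges overlap between the probes, but within each probe the orientations were apart.

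By mean effect, the first-table genes lined up as Dnajb1, Hsp90aa1, Fkbp4, Hspd1, Hspa8, Dnaja1, Chordc1 and Dnaja2. Each gap between neighbours in this order was smaller than the larger of the neighbours' SDs between pairs, so the order is a description of these slides. In pair 3, Fkbp4, Hspd1, Dnajb1 and Hsp90aa1 had mean effects of 0.0025 or more, and Hspa8, Dnaja1, Chordc1 and Dnaja2 were negative. Those 4 were also on the second table, where Hspa8, Dnaja1 and Dnaja2 were again negative in pair 3 and Chordc1 was not. Hsp90aa1 was on the second table too, and its pair 3 effect there was negative (-0.07).

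Across single probes, 11 of 22 first-table members were positive in all 3 pairs, against 11.4% of all probes, and the other 11 were positive in pairs 1 and 2 and negative in pair 3, against 15.3%. Of the second-table members, 1 of 7 was positive in all 3 pairs (9.84% of all probes) and 6 of 7 had the second pattern (15.7%). The records were also counted without averaging. In pair 1 of the first table, both records with treated RNA in channel 1 lay above both swapped records for 22 of 22 members, which 35.2% of all probes did. In pair 2 this held for 22 of 22 (25.3% of all probes) and in pair 3 for 4 of 22 (11.2%), while 7 of 22 had the reverse order in pair 3 (21.6%). On the second platform it held for 6 of 7 members in pair 1 (12.7% of all probes), 5 of 7 in pair 2 (12%) and 1 of 7 in pair 3 (16.7%), where 4 of 7 had the reverse order (21.6%). Since the members were chosen on these effects, nothing is read from these counts.

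**Figure D3:**
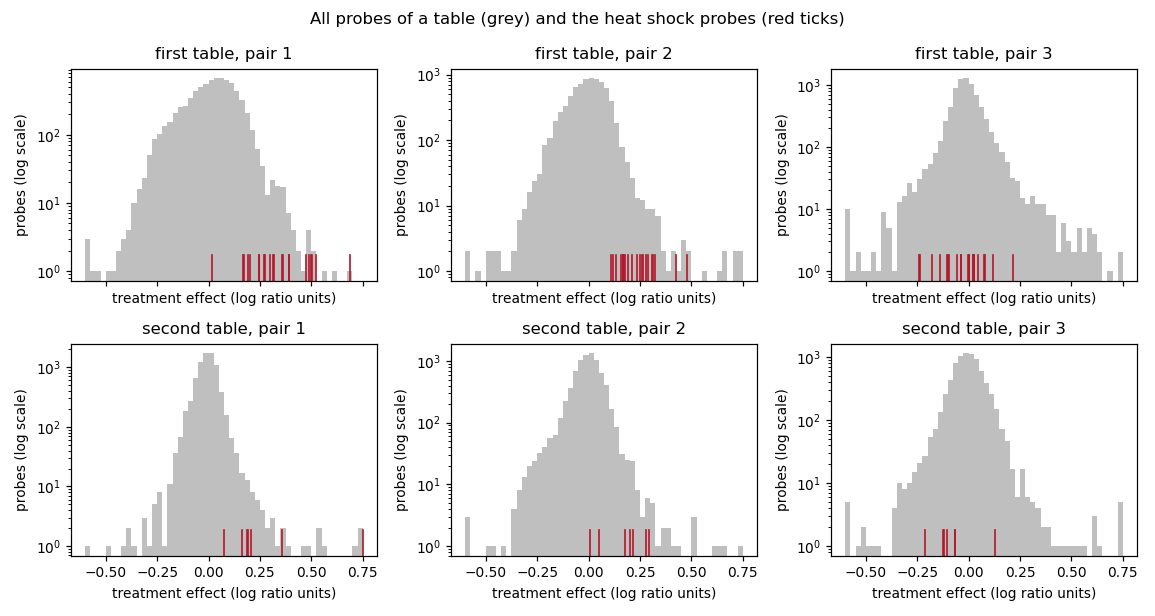
Distribution of treatment effects (horizontal axis, log ratio units) over all 7680 probes of each table and pair, with the heat shock probes marked; effects beyond -0.6 or 0.75 are drawn at the edge, as for 33 values in all. Most members lie in the right tail in pairs 1 and 2 of both tables, with Dnaja2 near the centre in first-table pair 1 and second-table pair 2. In pair 3 of the first table the members spread to both sides of the centre, some of them into the tails. In pair 3 of the second table most lie left of the centre.

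The fit across all probes called no probe in either table. With limma and Benjamini-Hochberg adjustment over 7680 probes, 0% of probes had an adjusted p under 0.05 for the first table and 0% for the second table, and the lowest adjusted p was 0.997 and 0.673. At an unadjusted p under 0.05 there were 180 probes in the first table (2.34%), of which 13 were members, and 401 in the second (5.22%), of which 2 were members. All 7 Hsp90aa1 probes, both Dnajb1 probes, both Hspd1 probes and 2 of 3 Fkbp4 probes were among the 13. The choice of the members used the same effects, so these counts are no test of them.

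Leaving out pair 3 of the first table changed the result of the fit. Then 24 probes passed (limma, Benjamini-Hochberg, 0.312% of 7680), and 9 of them were members: 5 Hsp90aa1 probes, 2 Dnajb1 probes and 2 Hspa8 probes. Since the members were chosen on effects that pairs 1 and 2 carry, their calls without pair 3 follow from that choice and are no test of them. Without pair 1 of that table, 24 probes passed, none of them a member, and without pair 2, 30 passed, among them Dnajb1 probe 2265. For the second table, leaving out pair 3 gave 0% of probes, leaving out pair 1 gave 40 and leaving out pair 2 gave 58. The 58 included the Dnaja2 probe with the single high record.

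Repeat records of a slide gave the same sign for all members in pairs 1 and 2, except for the second-table Dnaja2 probe in pair 2 (-0.09 from first and 0.10 from second records). First records alone gave 22, 22 and 10 positive first-table members in pairs 1, 2 and 3, and second records alone gave 22, 22 and 10. Second-table first records gave 7, 6 and 1, and second records 7, 7 and 1. Over all probes of the first table, the effects from first and from second records correlated at r = 0.60, 0.30 and 0.49 in pairs 1, 2 and 3, across probes that share slides and RNA. Between second-table records the correlation was 0.18, 0.037 and 0.27, so single-probe effects of most genes were hardly repeatable there, and the spread of effects (SD over probes 0.058 to 0.087) was smaller than in the first table (0.099 to 0.12).

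The dye component of the members was large and moved with the pair. Its median over the members was -0.37, 0.046 and -1.04 in pairs 1, 2 and 3 of the first table; for second-table members it was -0.70, -0.064 and -1.22. Most members' values in pair 3 were therefore low in both orientations, as the Hsp90aa1 values above show. Less negative were the pair 3 dye components of the second-table Chordc1 probe (-0.03) and of the Dnajb1 probes (-0.36 and -0.14). Over all probes, effect and dye component correlated at r = -0.46, 0.37 and 0.15 within first-table pairs, and at 0.10, 0.12 and 0.14 within second-table pairs. Probes with a dye component within the interquartile range of the members had median effects of 0.099, 0.0045 and -0.03 (first table) and of -0.02, -0.0032 and -0.02 (second table). Above the upper quartile of these probes lay 21, 22 and 7 of 22 first-table members and 7, 6 and 1 of 7 second-table members. All members were counted there, although only 10 of 22 and 3 of 7 lay within that dye range in each pair. Since the members were chosen on these effects, the counts are a description and no test. After a lowess trend of effect on dye component was removed within each pair, the members' median was 0.21, 0.23 and 0.03 over first-table probes, and 0.19, 0.20 and -0.08 over second-table probes. The part of the dyes in the remaining differences was not tested.

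**Figure D4:**
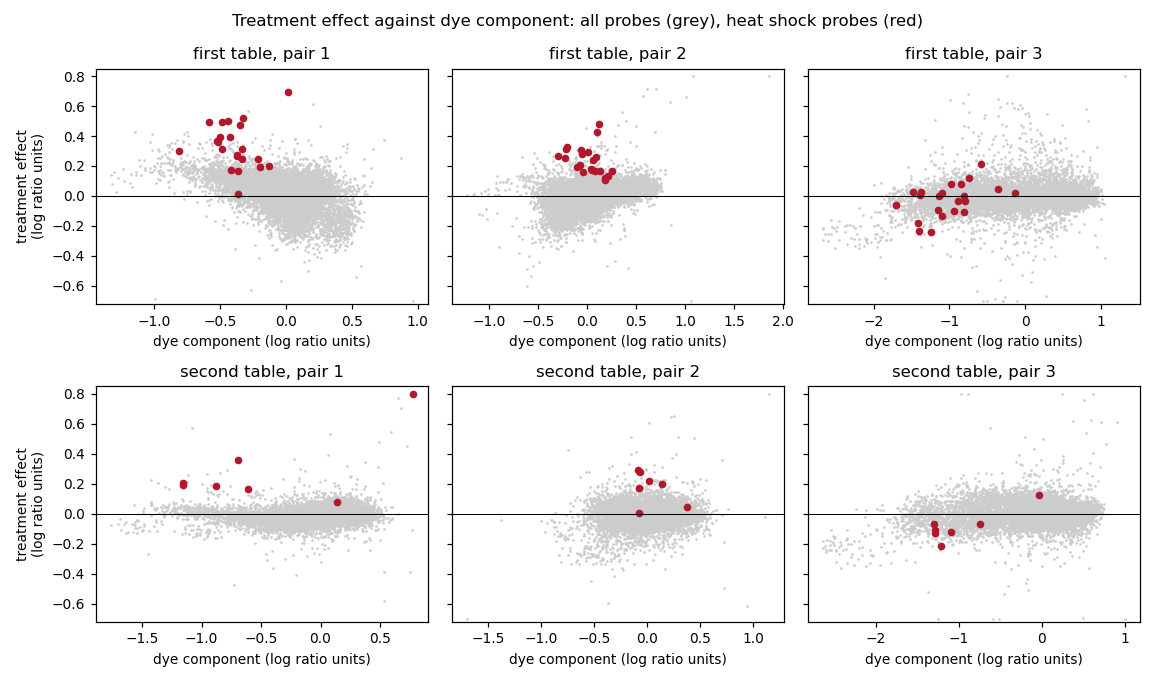
Treatment effect (vertical axis) against dye component (horizontal axis), both in log ratio units, for all probes (grey) and the heat shock probes (red) of each pair; effects beyond -0.7 or 0.8 are drawn at the edge, as for 22 values in all, among them Dnaja2 at 1.14. In pairs 1 and 2 most members lie above most probes of the same dye component. In pair 3 most members lie at a strongly negative dye component, with effects on both sides of 0.

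Abundant gene groups showed in part the same order of pairs. Ribosomal protein genes, 34 in the first table, had median effects of 0.18, 0.05 and 0.02 and dye components of -0.71, -0.26 and -1.50. Glycolytic genes, 8 in the first table, had 0.27, 0.02 and -0.0095. With probes averaged per gene, the 8 heat shock genes had 0.27, 0.18 and -0.02, and all 3838 genes had 0.024, 0.0084 and -0.01. The first-table medians of heat shock and glycolytic genes were thus alike in pair 1, and in pair 2 the heat shock median was higher. On the second platform the 60 ribosomal protein genes had 0.031, -0.05 and 0.0011, the 3 glycolytic genes 0.13, -0.07 and -0.01, and the 5 heat shock genes 0.20, 0.17 and -0.07. Differences between the groups were not tested.

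Markers of cell types that an embryo preparation could hold were few on these arrays. Of the yolk sac visceral endoderm list, 5 genes were measured in the first table, with a median effect of -0.03 and 1 of 5 positive. Of the primitive erythroid list, 3 genes were measured in the second table, with a range of -0.09 to -0.05. Trophoblast and decidua were covered by 2 first-table genes, with mean effects of -0.006 and 0.17, and by 1 second-table gene at -0.05. Neural tube was covered by 1 first-table gene, with a mean effect of 0.05 and positive in all 3 pairs, and heart by none. Their part in the heat shock effects was not tested.

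The wider chaperone system was read from a list of 90 further genes. Of these, 32 were measured in the first table, by 44 probes: 31 had a positive mean effect, 12 were positive and 2 negative in all 3 pairs, and the median was 0.034. Of all first-table probes, 46.2% had a positive mean and 11.4% were positive in all 3 pairs. The second table measured 25 of the 90 genes, by 31 probes: 22 had a positive mean, 11 were positive and 0 negative in all 3 pairs, and the median was 0.021. Of all second-table probes, 48.4% had a positive mean and 9.84% were positive in all 3 pairs. The share of all probes that were negative in all 3 pairs was not counted. None of the list probes passed the limma fit in either table, where 0% of all probes passed. At the gene level the list's medians in the first table were 0.064, 0.042 and 0.0005 in pairs 1, 2 and 3, between those of the members and of all genes in pairs 1 and 2. The second-table medians of the list were 0.0084, 0.019 and 0.027, the highest in pair 3.

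By role, HSP90 and HSP70 co-chaperones of the first table had a positive mean effect at 16 of 18 probes, J-domain proteins at 9 of 18 and all probes at 46.2%. The order was the opposite on the second platform, with 4 of 9 co-chaperone probes, 8 of 9 J-domain probes and 48.4% of all probes, and the difference between the roles was not tested. Cdc37, which delivers kinases to HSP90, gave 0.11, 0.11 and 0.06 at one probe and 0.07, 0.09 and 0.05 at the other. Stip1, which links HSP70 to HSP90, gave 0.11, 0.11 and 0.05 at the probe positive in all pairs, and 0.25, 0.23 and -0.02 at its other probe. Trap1, the mitochondrial HSP90, gave 0.15, 0.04 and 0.04. The J-domain gene Dnajc5 gave 0.17, 0.09 and 0.04. Dnajc7 gave 0.17, 0.27 and 0.05 at probe 5812, while its other probe gave 0.07, -0.07 and -0.02.

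The only probes of the list that were negative in all 3 first-table pairs were Rbm3, a cold-inducible RNA-binding protein (-0.02, -0.02 and -0.24), and Dnajb4 (-0.06, -0.07 and -0.03). Hsph1, the HSP110 exchange factor of HSP70, is named after its values were seen, because it had the members' order of pairs at both of its probes. They gave 0.41, 0.36 and -0.0096, and 0.37, 0.34 and -0.08.

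In the second table the largest effects positive in all 3 pairs were those of Serpinh1, the collagen chaperone of the endoplasmic reticulum (0.14, 0.14 and 0.19), and of Jmjd6, an iron-dependent hydroxylase (0.13, 0.21 and 0.09, and 0.04, 0.06 and 0.12 at its other probe). Bag5, an HSP70 nucleotide exchange factor, gave 0.20, 0.08 and 0.08. St13, an HSP70-interacting co-chaperone, gave 0.09, 0.07 and 0.09 at probe 2762, while its other probe gave 0.046, -0.0067 and -0.05. Dnajb9, a J-domain protein of the endoplasmic reticulum, gave 0.04, 0.12 and 0.07. Among the 5 probes positive in all pairs with the largest means, only that of Jmjd6 was lower in pair 3 than in both other pairs. These probes were picked for a positive pair 3, so their pair 3 values cannot be set against those of the members.

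The list genes on both tables, members aside, were Dnajb9, Dnajc3 and Dnajc21, which encode J-domain proteins. Dnajb9 gave 0.11, 0.06 and -0.35 in the first table, so its pair 3 values had opposite signs in the 2 tables. Dnajc3 gave 0.16, 0.06 and -0.03 in the first table, and 0.05, 0.08 and 0.04 and 0.02, 0.12 and 0.003 at its second-table probes. Dnajc21 gave 0.03, 0.09 and -0.01, and 0.0064, -0.03 and -0.0044.

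Likeness to Hsp90aa1 was measured as the root mean square difference from its mean over 6 effects, those of first and second records in 3 pairs, among probes with 1 gene symbol outside the members. In the first table the nearest were Luc7l3 at 0.046 (effects 0.50, 0.27 and -0.07), Calr at 0.082, Prpf38b at 0.082 and Hspa5 with 2 probes at 0.082 and 0.090. The median over all 4749 probes with 1 symbol, members included, was 0.31. Nearest to the second-table Hsp90aa1 probe were Ankrd10 at 0.091, Id3 at 0.12, Cacybp at 0.14, Nemf at 0.14 and Rsrp1 at 0.15, with a median of 0.26 over 4935 probes. Ankrd10 gave 0.24, 0.18 and -0.16 there, the same order of pairs as the Hsp90aa1 probe. With the members counted in, the nearest first-table members beside Hsp90aa1 itself were a Dnaja1 probe at place 19 of 4749, an Hspa8 probe at 20 and an Fkbp4 probe at 25. The others lay between 27 and 118, except Dnaja2 at 1351. Among 4935 second-table probes, Hspa8 took places 3, 4 and 7, Dnaja1 6, Chordc1 411 and Dnaja2, with its single high record, 4931. The members were chosen on the effects that this measure uses, so their places are no test of likeness.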

How the data were processed

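The deposited values were log ratios of 2 channels, of unstated base and numerator; what the submitters did for background correction and normalization is not given in the sources used here. Both tables were complete, with array medians from -0.305 to 1.12 (first table) and from 0.272 to 2.10 (second). Depth and signal over background are unknown, and precision is limited by 3 slide pairs per table. Arrays were median-centred, records averaged and slides combined per pair, so the pair is the block. Each table's pair effects were compared with 0 in limma 3.58.1 (R 4.3.3; lmFit, eBayes), with Benjamini-Hochberg adjustment at 0.05, after a check on simulated data. The simulated shifts were equal in every pair and larger than the median effects of the members. Recovery of effects of the members' size was therefore not checked. The p-values reflect only variation among slide pairs, possibly technical. Design notes had assumed a log2 scale, which leaves the p-values unaffected. Probes with several symbols were left out, among them 1 that carries a member's symbol; cross-hybridisation of related genes was not tested. Named genes were all members, list genes on both tables, and the 5 most positive and 5 most negative list probes of 1 sign in all 3 pairs. The members and lists were chosen with earlier results of these data known. Alternatives covered the turn of swapped slides, single orientations and records, centring, scaling, dye trend, pairing and left-out pairs.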

Additional observations from a re-analysis of the deposited data

Results flagged for a closer look

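Of 58 groups of 6 records, 1 held a value far from the others: the second-table Dnaja2 probe read 4.18 in the first record with treated RNA in channel 1 of pair 1. The gap to the nearest record was 0.813 of the whole range. The other record of the same slide read -0.34. For independent values chance alone would flag about 1 in 20 such groups, but repeat records of a slide are not independent, so that rate is only nominal here.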

How the results depend on the processing

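The median member effect, 0.17 for the first table and 0.12 for the second table, stayed positive when single records, scaled, quantile-normalized or detrended arrays were used. It also did so when each gene counted once and when any pair was left out (0.11 to 0.28 and 0.050 to 0.24). Since the members were chosen on these effects, the positive medians are a description and no test. Without turning the swapped slides the median member effect was -0.45 and -0.62. With treated RNA in channel 1 alone it was -0.30 and -0.52, and with channel 2 alone 0.61 and 0.75. In pair 3 alone, chosen after seeing the data, it was -0.0001 and -0.11. In these 4 settings the cause was not tested. Of 29 member probes, 29 were positive as reported, 1 without the turn, 4 in channel 1 alone, 28 in channel 2 alone and 23 as deposited. In the same order of settings, 46.2%, 52.2%, 50.2%, 46.6% and 2.46% of all first-table probes were positive. Among all second-table probes the shares were 48.4%, 43.6%, 44.4%, 56.3% and 5.38%. Uncentred values moved the median of all first-table probes to -0.13, and the members' median there was 0.045.

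With limma, first-table calls numbered 219 without the turn, 174 and 668 with channel 1 or channel 2 alone, 33 as deposited and 24 to 30 with a pair left out, against 0 as reported. For the second platform, 1 probe was called as deposited and 0 to 58 with a pair left out. Ignoring the pairing, that is without the replicate block, gave 0 calls in both tables and the same medians of 0.17 and 0.12; 1 probe in each table then had an unadjusted p under 0.05. Signal over background is not given, so dim probes could not be set apart.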
